A study of Rattus norvegicus with 6 samples.

Results

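The laminin, collagen IV and nidogen genes of the choroid plexus were followed here through 10 members, Col4a1, Col4a2, Col4a5, Lama2, Lama4, Lama5, Lamb1, Lamb2, Lamc1 and Nid1, out of 14217 genes with a probe set of their own on the array. The members were chosen by name as chains of the basement membrane, by a rule that uses no measured value although earlier results of these data were known, and each was read from its brightest single-gene probe set over the 6 arrays. Together the 10 genes had 16 such probe sets, and all 10 passed the filter on low values with at least 1 probe set. By their brightest probe sets, Col4a1, Col4a2 and Lama4 passed only through E19 and P2, their adult means being under 100 units. The filter thus favoured a call as higher for these genes. Choroid plexuses of the lateral ventricles came from Sprague-Dawley rats with no treatment or genetic change, at embryonic day 19 (E19), at postnatal day 2 (P2) and in the adult, with 2 pools of animals per stage. A pool held the plexuses of 5 animals at E19 and P2 and of 3 animals in the adult according to the methods. The labels give batches of 6 to 10 plexuses. The adults were males, and the sex of the younger animals is not given in the sources used here, so that stage and sex cannot be told apart for the adult comparisons. Labelled copies of the 3' ends of transcripts from 100 ng of total RNA were hybridized to Affymetrix Rat 230 2.0 arrays, and the values are linear MAS5 signal intensities in arbitrary units.

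Basement membranes are thin sheets of extracellular matrix under epithelia and around endothelium and mural cells. Laminins are secreted as trimers of an alpha, a beta and a gamma chain, which polymerize at the cell surface and bind integrins and dystroglycan, and type IV collagen chains wind into triple helices that form a cross-linked network. Nidogens bridge the laminin and the collagen IV networks, and perlecan and agrin fill in heparan sulfate. In the choroid plexus a single epithelial layer rests on a basement membrane over a stroma with leaky, fenestrated capillaries, which have a basement membrane of their own. A tissue extract therefore sums the transcripts of epithelium, vessels and stroma.

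Collagen IV genes lie in the genome as head-to-head pairs, read in opposite directions from a shared promoter region, and Col4a1 and Col4a2 are one such pair. In the RefSeq promoter table of assembly GRCr8, 76 bases separated the annotated starts of Col4a1 and Col4a2, 412 those of Col4a3 and Col4a4, and 1414 those of Col4a5 and Col4a6. A start on the opposite strand within 76 bases, read away from it, was found for 2.13% of the 33469 genes in that table. The stretch between the starts of Col4a2 and Col4a1 is given because both genes showed the same pattern over the stages, and the 250 bases before the starts of Lama4 and Lama2 because these alpha chains moved in opposite directions. They lie at chr16:84885521-84885596 (plus strand), chr20:43946648-43946897 (plus strand) and chr1:19491896-19492145 (plus strand), all on GRCr8. Capitals mark matches on either strand to the GC box GGGCGG, the CCAAT box CCAAT and the TATA box TATAAA, which do not overlap one another here.
Col4a2 to Col4a1: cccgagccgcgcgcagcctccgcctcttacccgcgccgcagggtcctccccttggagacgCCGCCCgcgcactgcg
Lama4: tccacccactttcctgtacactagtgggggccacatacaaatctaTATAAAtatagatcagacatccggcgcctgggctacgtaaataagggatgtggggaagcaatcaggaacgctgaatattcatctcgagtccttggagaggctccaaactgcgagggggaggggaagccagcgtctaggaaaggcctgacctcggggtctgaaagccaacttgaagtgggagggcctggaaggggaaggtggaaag
Lama2: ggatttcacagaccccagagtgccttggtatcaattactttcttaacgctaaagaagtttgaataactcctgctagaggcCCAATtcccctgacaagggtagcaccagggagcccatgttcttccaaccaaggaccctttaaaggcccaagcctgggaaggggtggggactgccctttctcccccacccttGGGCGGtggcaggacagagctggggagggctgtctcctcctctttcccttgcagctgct
The 76 bases shared by Col4a1 and Col4a2 held 1 GC box, which 18.1% of the stretches of that length before all starts also held. Over 250 bases, GGGCGG was found before 8 of the 9 members in the table, all except Lama4, and before 30.5% of all genes. The CCAAT letters stood before 4 members (Col4a1, Col4a2, Lama2 and Nid1) and 34.0% of all genes, and TATAAA before Lama4 alone and 12.9% of all genes. The GC box between Col4a1 and Col4a2 counts for both genes, so these 2 members are not independent. Their CCAAT letters lie outside that stretch, beyond the start of the partner gene. These are matches of letters, and Lamb2 was not in the table. The shares cover all genes in the table, whatever their signal here, and a difference from them was not tested.

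Most of the 10 genes had their highest values before and just after birth. At E19, 7 genes (Col4a1, Col4a2, Col4a5, Lama4, Lamb1, Lamc1 and Nid1) were higher than in the adult, Lama2 and Lamb2 were lower, and Lama5 did not pass the test (limma, adjusted p under 0.05 over 17808 tested probe sets). The same 7 genes were higher and the same 2 lower at P2, again with Lama5 not passing. Among the genes called higher, Col4a1, Col4a2 and Lama4 entered the test only through the younger stages. The median log2 fold change of the 10 genes was 2.53 at E19 and 2.28 at P2 against the adult, beside 0.04 and 0.05 over the 10334 genes tested. As background, 31.4% of all tested genes were called higher at E19 and 25.2% were called lower. For P2 against the adult these shares were 28.8% and 21.8%. The counts of the other gene lists against the adult, given below, stand beside the same shares. Both comparisons share the adult arrays, so their results are not independent.

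**Figure D1:**
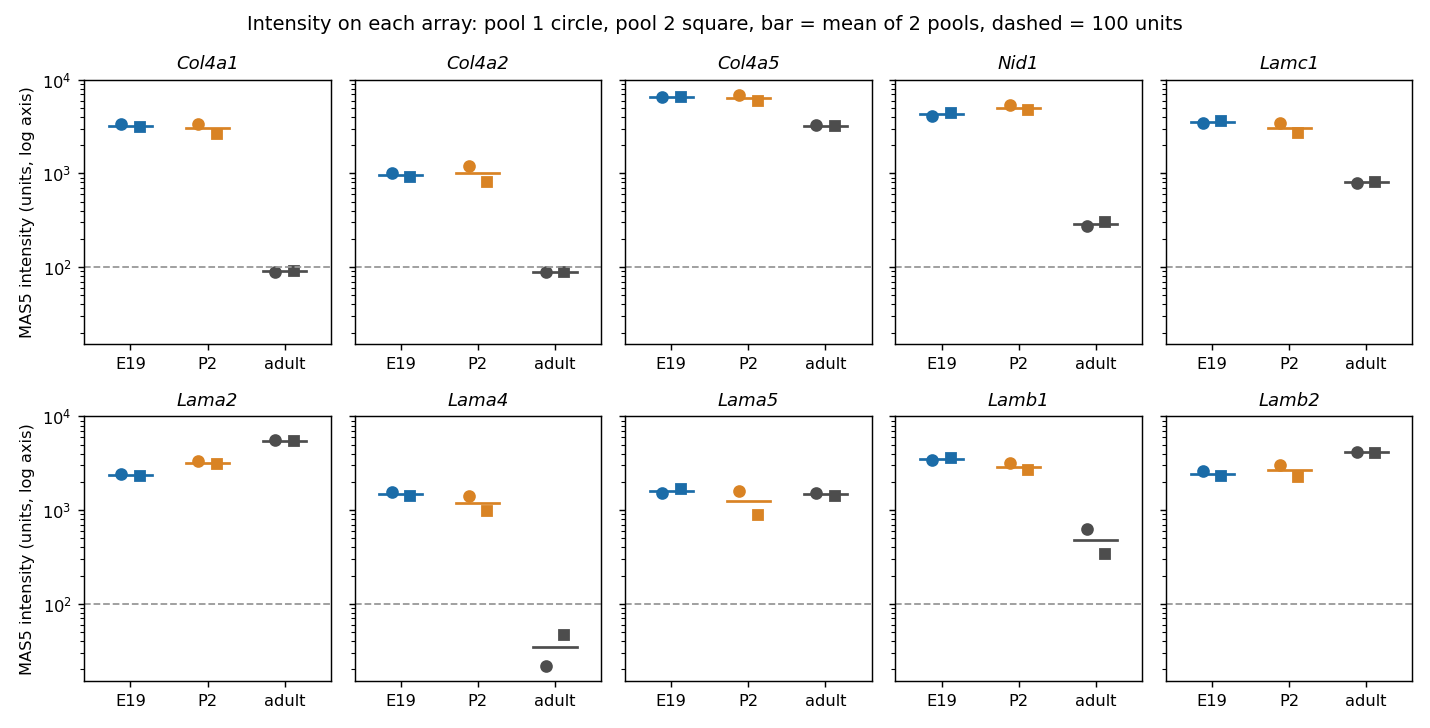
Each panel plots the MAS5 intensity (arbitrary units, log axis) of 1 gene on the 6 arrays at E19, P2 and adult, with pool 1 as a circle, pool 2 as a square, the mean as a bar and 100 units as a dashed line. Col4a1, Col4a2 and Lama4 lie under 100 units on both adult arrays, Lama2 and Lamb2 are highest in the adult, and the Lama5 values of the stages overlap.

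Col4a1 and Col4a2 encode the chains of the most widespread collagen IV network, found under nearly all epithelia and around vessels. Col4a1 had intensities of 3333 and 3149 units in the E19 pools, 3393 and 2640 in the P2 pools and 88.7 and 91.8 in the adult pools. The adult values lay close to each other and far under every younger value. Since both adult arrays were under 100 units, the level the study takes as background, the difference is a bound: Col4a1 was at least 32.4-fold higher in E19 plexus (fitted log2 5.17, standard error 0.14, adjusted p = 5.23e-05) and at least 29.9-fold higher in P2 plexus (adjusted p = 8.1e-05). A second probe set of Col4a1 gave 2908 and 2688 units in the E19 pools, 3316 and 2396 in the P2 pools, and 116 and 111 in the adult pools, the same order of stages.

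Col4a2, the partner chain, gave 1002 and 922 units in the E19 pools, 1185 and 817 in the P2 pools, and 88.1 and 87.7 in the adult pools. As for Col4a1, the younger stages overlapped each other and the adult arrays stood apart under 100 units. Col4a2 was at least 9.61-fold higher in E19 plexus (fitted log2 3.45, standard error 0.19, adjusted p = 0.000226) and at least 9.84-fold higher in P2 plexus (adjusted p = 0.000279) than in the adult.

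Col4a5 encodes a chain used in more specialized collagen IV networks, as in kidney and in the basement membranes of smooth muscle. Its values were 6465 and 6492 units in the E19 pools, 6893 and 5858 in the P2 pools, and 3268 and 3193 in the adult pools. It was the collagen IV member whose adult signal stayed well above background, and its stages before and after birth overlapped. The gene was 2.01-fold higher in E19 plexus (log2 1.00, standard error 0.11, adjusted p = 0.00143) and 1.97-fold higher in P2 plexus (adjusted p = 0.00196) than in the adult.

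Laminin alpha chains carry the sites for cellular receptors and differ most between tissues. Lama4, the alpha chain typical of vessel walls and other mesenchymal tissue, gave 1550 and 1409 units in the E19 pools, 1402 and 984 in the P2 pools, and 21.7 and 46.6 in the adult pools. The adult pools were both far under 100 units, where their order has no meaning. Lama4 was at least 14.8-fold higher in E19 plexus (fitted log2 5.54, standard error 0.39, adjusted p = 0.000423) and at least 11.7-fold higher in P2 plexus (adjusted p = 0.000673). A second Lama4 probe set stayed under 100 units on all 6 arrays and was not tested.

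Lama2, the alpha chain best known from muscle and peripheral nerve, whose loss causes a congenital muscular dystrophy, ran the other way. Its intensities were 2415 and 2314 units in the E19 pools, 3339 and 3095 in the P2 pools, and 5542 and 5474 in the adult pools, so that the stages did not overlap and stood in the order of age. Lama2 was 2.33-fold lower in E19 plexus (log2 -1.22, standard error 0.09, adjusted p = 0.000443) and 1.71-fold lower in P2 plexus (log2 -0.78, adjusted p = 0.0021) than in the adult.

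Lama5 encodes the alpha chain of most mature epithelial and endothelial basement membranes. Its values were 1518 and 1676 units in the E19 pools, 1618 and 877 in the P2 pools, and 1535 and 1427 in the adult pools. P2 pool 2 stood below the other arrays, which lay close together. Against the adult the log2 fold changes were 0.11 for E19 (standard error 0.29, adjusted p = 0.771) and -0.31 for P2 (adjusted p = 0.407), and neither passed the test. Without P2 pool 1 the log2 fold change at P2 was -0.76, resting on the low pool alone. Without P2 pool 2 it was 0.13. The 2 other Lama5 probe sets were under 100 units on all arrays.

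Of the beta chains, Lamb1 is the form of early and of many embryonic laminins. Lamb1 gave 3430 and 3587 units in the E19 pools, 3156 and 2656 in the P2 pools, and 629 and 341 in the adult pools. On the log2 scale the adult pools differed from each other more than the pools of a younger stage, but both were far lower. Lamb1 was 7.57-fold higher in E19 plexus (log2 2.92, standard error 0.30, adjusted p = 0.00125) and 6.25-fold higher in P2 plexus (adjusted p = 0.00212), and its log2 fold change at E19 was 2.48 when adult pool 2 was left out and 3.36 when pool 1 was.

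Lamb2, the beta chain of the glomerulus, the neuromuscular junction and mature vessels, had the opposite direction. Its values were 2588 and 2329 units in the E19 pools, 3035 and 2279 in the P2 pools, and 4182 and 4086 in the adult pools, and every younger value lay under both adult values. Lamb2 was 1.68-fold lower in E19 plexus (log2 -0.75, standard error 0.16, adjusted p = 0.0127) and 1.57-fold lower in P2 plexus (log2 -0.65, adjusted p = 0.0224). The call at E19 was lost without E19 pool 2 (log2 -0.68, adjusted p = 0.0706), and the call at P2 without P2 pool 2 (log2 -0.45, adjusted p = 0.0531), without adult pool 1 (log2 -0.64, adjusted p = 0.0748) or without adult pool 2 (log2 -0.67, adjusted p = 0.0678). Both calls were also lost with no filter on low values, with adjusted p of 0.0553 and 0.084.

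Lamc1, the gamma chain that nearly all laminin trimers share, gave 3483 and 3599 units in the E19 pools, 3424 and 2674 in the P2 pools, and 799 and 807 in the adult pools. Unlike Col4a1 and Lama4, it kept a clear adult signal. Lamc1 was 4.41-fold higher in E19 plexus (log2 2.14, standard error 0.14, adjusted p = 0.000331) and 3.77-fold higher in P2 plexus (adjusted p = 0.000586). Its dimmer probe set gave 655 and 507 units in the E19 pools, 430 and 424 in the P2 pools, and 130 and 124 in the adult pools, again with every younger value above the adult.

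Nid1 encodes nidogen-1, the link between the laminin gamma chain and collagen IV. It gave 4106 and 4439 units in the E19 pools, 5315 and 4760 in the P2 pools, and 277 and 299.7 in the adult pools, with no overlap between any stages. Nid1 was 14.8-fold higher in E19 plexus (log2 3.89, standard error 0.10, adjusted p = 5.23e-05) and 17.5-fold higher in P2 plexus (adjusted p = 8.01e-05). A second, dim probe set of Nid1 lay between 97.5 and 187 units on the 6 arrays and did not pass the test, with log2 fold changes of 0.23 (adjusted p = 0.51) at E19 and 0.50 (adjusted p = 0.178) at P2.

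**Figure D2:**
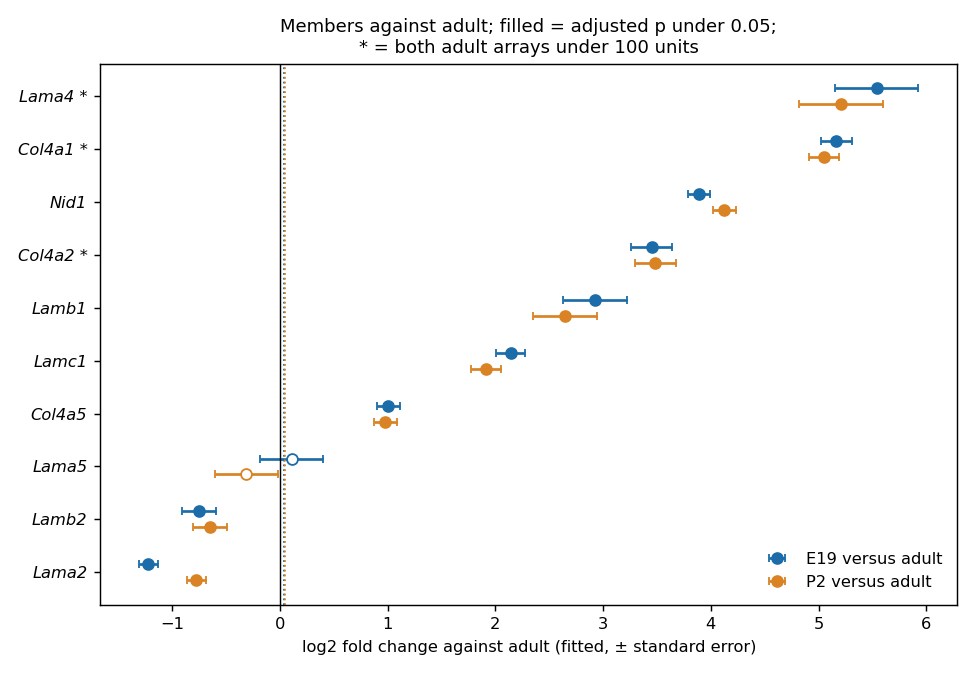
Log2 fold changes of the 10 genes against the adult (x axis) with standard errors from limma, E19 in blue and P2 in orange, filled where the adjusted p was under 0.05, with dotted lines at the medians of all genes. Values run from -1.22 for Lama2 to 5.54 for Lama4 at E19, and an asterisk marks genes with both adult arrays under 100 units, whose fitted value rests on that low signal.

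Between E19 and P2 the 10 genes differed little. Only Lama2 was called, 1.36-fold lower at E19 than at P2 (log2 -0.44, standard error 0.09, adjusted p = 0.0499), and 9 genes did not pass, against 2.56% of all tested genes called higher and 3.61% called lower at E19. The Lama2 call sat at the threshold and was lost without any one of the 6 arrays. Leaving out an adult array changed only the spread used, not the E19 or P2 values. The widest other log2 differences were 0.42 for Lama5 (adjusted p = 0.401), 0.33 for Lama4 (adjusted p = 0.625) and 0.28 for Lamb1 (adjusted p = 0.591), so that a small change around birth in these genes was not detectable with 2 pools per stage.

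The pools of P2 were less alike for these genes than those of E19. All 10 genes were lower in P2 pool 2 than in P2 pool 1, by a median log2 difference of -0.36 and a range from -0.88 to -0.11, while 49.7% of all tested genes were lower in that pool. At E19, 5 of the 10 were lower in pool 2, with differences from -0.15 to 0.14. Fibroblast and fibrillar matrix genes moved with them between the P2 pools, 10 of 13 being lower in pool 2 with a median of -0.32, as did 8 of 10 mural cell markers (median -0.18), 10 of 13 macrophage and myeloid markers (-0.14) and 7 of 9 neuron, glia and myelin genes (-0.22). All 5 other laminin, collagen IV and nidogen chains tested were lower in pool 2 too (median -0.59), as were 12 of 16 other basement membrane proteins (-0.41). Smaller medians were seen for collagen IV synthesis (15 of 19 lower, -0.07), turnover (15 of 20, -0.06) and receptors (14 of 20, -0.08). Of 14 endothelial markers 9 were lower in pool 2, with a median of -0.03, and of 14 epithelial markers 10 (-0.05). Cell cycle genes (6 of 16 lower, 0.06) and erythroid genes (2 of 5, 0.07) went the other way. The part of any cell type in the difference was not tested. Without either of the P2 pools a single P2 array is left, so calls against the adult then carry no spread within P2.

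Pairs of laminin alpha, laminin beta or collagen IV chains were compared as ratios on each array. Probe sets differ in brightness, so only the shift of a ratio between stages is read, and with 2 arrays against 2 no exact permutation test could reach 0.05. The log2 ratio of Lamb1 to Lamb2 was 0.41 and 0.62 in the E19 pools, 0.06 and 0.22 in the P2 pools, and -2.73 and -3.58 in the adult pools. The stages did not overlap, and the ratio was 12.8-fold higher at E19 than in the adult. For Lama4 to Lama5 the log2 ratios were 0.03 and -0.25 in the E19 pools, -0.21 and 0.17 in the P2 pools, and -6.14 and -4.94 in the adult pools. Here E19 and P2 overlapped, and with adult Lama4 set to 100 units the ratio was at least 13.7-fold higher at E19 than in the adult.

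Lama2 to Lama5 shifted the other way, with log2 ratios of 0.67 and 0.47 in the E19 pools, 1.05 and 1.82 in the P2 pools, and 1.85 and 1.94 in the adult pools. The ratio was thus 2.51-fold higher in the adult than at E19. P2 pool 2 lay near the adult ratios, with a Lama5 intensity of 877 units against 1618 in P2 pool 1. Its Lama2 intensity was 3095 units, under the 5542 and 5474 of the adult pools. Within collagen IV, the log2 ratio of Col4a1 to Col4a5 was -0.96 and -1.04 in the E19 pools, -1.02 and -1.15 in the P2 pools, and -5.20 and -5.12 in the adult pools, and with adult Col4a1 set to 100 units it was higher at E19 by at least 16.2-fold. The ratio of Col4a1 to Col4a2 cannot be read in the adult, where both were under 100 units, and it was 1.73 and 1.77 at E19 and 1.52 and 1.69 at P2 on the log2 scale.

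**Figure D3:**
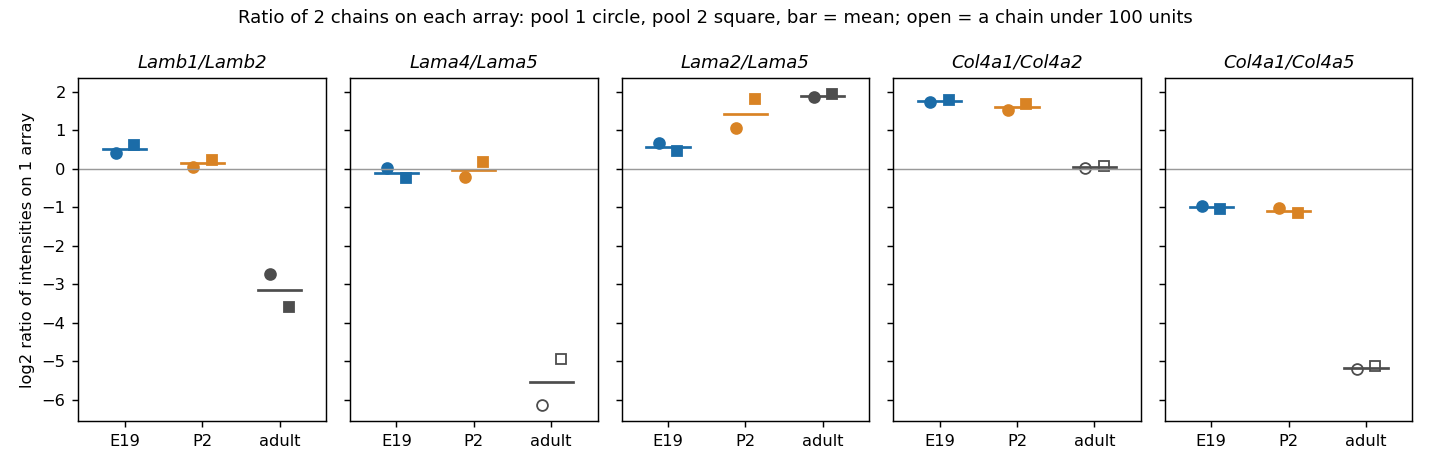
Log2 ratio of the intensities of 2 chains on each array (y axis) at E19, P2 and adult, pool 1 as a circle, pool 2 as a square and the mean as a bar, with open symbols where 1 of the chains was under 100 units. Lamb1 to Lamb2 falls from a mean of 0.51 at E19 to -3.16 in the adult, and Lama2 to Lama5 goes from 0.57 to 1.90.

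The remaining chains of the families added to this picture. Of 7 other laminin, collagen IV and nidogen genes with a probe set of their own, 5 were tested, Lamb3 and Col4a4 being under 100 units at every stage. Against the adult, 3 were higher and 2 lower at E19. At P2, 2 were higher, 1 was lower and 2 did not pass. The median log2 fold changes, 2.03 and 0.94, were the fitted values of Lama1, whose adult arrays were both under 100 units. For Lama1 the E19 difference is only a bound of at least 1.60-fold, and no fold is given at P2. The count of 5 called at E19 fell to 3 without E19 pool 1 or without adult pool 1.

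Col4a6, the head-to-head neighbour of Col4a5, gave 980 and 915 units in the E19 pools, 802 and 532 in the P2 pools, and 57.3 and 45.4 in the adult pools, at least 9.47-fold higher in E19 plexus (fitted log2 4.21, adjusted p = 0.000223) and at least 6.53-fold higher in P2 plexus (adjusted p = 0.000403). Both adult arrays of Col4a6 were thus under 100 units. Nid2, the second nidogen, gave 1144 and 1075 units in the E19 pools, 1430 and 1087 in the P2 pools, and 184 and 216 in the adult pools, 5.57-fold higher in E19 plexus (adjusted p = 0.000374) and 6.26-fold in P2 plexus (adjusted p = 0.000408). Both nidogens were therefore higher at the younger stages.

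Lama3, the alpha chain of laminins that anchor epithelia through hemidesmosomes, was 434 and 469 units in the E19 pools, 483 and 478 in the P2 pools, and 1540 and 1621 in the adult pools. It was 3.50-fold lower in E19 plexus (log2 -1.81, adjusted p = 0.000175) and 3.29-fold lower in P2 plexus (log2 -1.72, adjusted p = 0.000253), the same direction as Lama2 and Lamb2. Lama1, the alpha chain of the earliest embryonic laminin, was 160 and 160 units in the E19 pools, 103 and 54.5 in the P2 pools, and 23.4 and 65.3 in the adult pools. It was at least 1.60-fold higher in E19 plexus (fitted log2 2.03, adjusted p = 0.028) and did not pass at P2 (fitted log2 0.94, adjusted p = 0.209). Lamc3, a gamma chain of restricted distribution, gave 130 and 198 units in the E19 pools, 380 and 250.1 in the P2 pools, and 294 and 285 in the adult pools, with log2 fold changes of -0.85 (adjusted p = 0.0492) and 0.09 (adjusted p = 0.802).

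Other proteins built into basement membranes were mostly higher early. Of 16 tested, 12 were higher, 1 was lower and 3 did not pass at E19, and 12 were higher and 4 did not pass at P2, with medians of 1.43 and 1.82. The genes higher at E19 include Vwa1, under 100 units on every E19 and adult array, and Ntn1, with 93.9 and 102 units at E19. Both were named after their values were seen. Col18a1, Col15a1, Hmcn1, Fbln2, Egflam, Ntn1, Vwa1 and Smoc2 had adult means under 100 units. They passed the filter only through a younger stage, which favours a call as higher. Smoc2 counted as higher at P2 on a bound of at least 1.01-fold. Egflam and Smoc2 were also named after their values were seen. Col18a1, whose collagen carries heparan sulfate and releases endostatin, gave 1006 and 864 units at E19 against 17.0 and 52.6 in the adult, at least 9.32-fold higher (adjusted p = 0.00156). Col15a1, its close relative, was at least 4.08-fold higher (adjusted p = 0.0124) and Hmcn1, which encodes hemicentin-1, at least 2.09-fold (adjusted p = 0.00485).

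Fibulins and fibronectin bind laminin, nidogen and elastic fibres. Fbln2 was at least 5.41-fold higher in E19 plexus (adjusted p = 0.000254) and at least 3.08-fold in P2 plexus (adjusted p = 0.000797), and Fn1 5.01-fold and 4.08-fold (adjusted p = 0.00171 and 0.00327). Fbln5 was 2.65-fold higher in E19 plexus and 6.17-fold in P2 plexus (adjusted p = 0.00313 and 0.000633), with 1319 and 1131 units at P2 against 579 and 474 at E19, a difference that was itself called (log2 -1.22, adjusted p = 0.0351). The gene that was lower at E19 was Fbln1, singled out after its values were seen, at 1.77-fold (adjusted p = 0.01). Hspg2, the perlecan gene, did not pass at either stage, with 665 and 772 units in the E19 pools, 560 and 242 in the P2 pools, and 449 and 416 in the adult pools (adjusted p = 0.171 and 0.648). Without E19 pool 1 the number called at E19 fell from 13 to 8.

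The receptors for laminin and collagen did not share 1 direction. Of 20 tested, 10 were higher, 6 lower and 4 did not pass at E19, and 10 were higher, 3 lower and 7 did not pass at P2, with medians of 0.36 and 0.39. Itga6, the alpha chain of the main epithelial and endothelial laminin integrins, gave 1434 and 1403 units in the E19 pools, 922 and 771 in the P2 pools, and 215 and 207 in the adult pools, 6.72-fold higher in E19 plexus (adjusted p = 0.000121) and 3.99-fold in P2 plexus (adjusted p = 0.000324). Itga7, the laminin integrin of muscle cells, showed the reverse, with 75.2 and 106 units in the E19 pools, 350 and 218 in the P2 pools, and 876 and 989 in the adult pools. With 1 E19 array under 100 units, it was at least 9.03-fold lower in E19 plexus (adjusted p = 0.000675) and 3.37-fold lower in P2 plexus (adjusted p = 0.00614). These chains pair with the same beta subunit, Itgb1, which was 2.41-fold higher in E19 plexus (adjusted p = 0.000556) and was named for that pairing after its values were seen.

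Mcam, a laminin alpha-4 receptor of endothelium that was also listed as a mural cell marker, had 1 adult array under 100 units and was at least 6.02-fold higher in E19 plexus (adjusted p = 0.00229) and at least 5.69-fold in P2 plexus (adjusted p = 0.00311). Bcam, the receptor that binds the laminin alpha-5 chain, was higher by 2.85-fold and 2.13-fold (adjusted p = 0.00035 and 0.00111). Sdc3 was at least 1.16-fold and at least 1.49-fold higher (adjusted p = 0.00117 and 0.000698). Itgb4, the integrin chain of hemidesmosomes that binds laminins with the Lama3 chain, was 2.44-fold lower in E19 plexus and 1.65-fold lower in P2 plexus (adjusted p = 0.00159 and 0.0117). Integrin subunits Itga1 and Itgav did not pass at E19 (adjusted p = 0.0951 and 0.124), and without E19 pool 2 the number of receptors called fell from 16 to 10.

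Collagen IV needs hydroxylation, chaperones and cross-linking enzymes. Of 19 tested genes for these steps, 8 were higher, 3 lower and 8 did not pass at E19, and 9 were higher, 2 lower and 8 did not pass at P2, with medians of 0.31 and 0.41. Pxdn, the peroxidase that makes the sulfilimine bond between collagen IV molecules, gave 1599 and 1651 units in the E19 pools, 1705 and 1625 in the P2 pools, and 189 and 176 in the adult pools. It was 8.90-fold higher in E19 plexus (adjusted p = 5.31e-05) and 9.11-fold in P2 plexus (adjusted p = 8.01e-05), with younger stages that overlapped.

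Other genes on the list act on collagens in general. Serpinh1, the collagen chaperone, was 1.95-fold higher in E19 plexus (adjusted p = 0.000914), the galactosyltransferase gene Colgalt1 1.87-fold (adjusted p = 0.00319), and the prolyl 3-hydroxylase genes P3h1 and P3h3 1.82-fold and 1.76-fold (adjusted p = 0.00243 and 0.00214). P4ha3, a prolyl 4-hydroxylase subunit, was at least 2.00-fold higher, a lower bound because its adult arrays read 24.4 and 8.64 units (adjusted p = 0.0027). The 3 genes lower at E19, named after their values were seen, were the lysyl oxidase gene Loxl1 (1.62-fold, adjusted p = 0.00305), the export factor gene Mia2 (1.52-fold, adjusted p = 0.0131) and the lysyl hydroxylase gene Plod2 (1.30-fold, adjusted p = 0.0159). The subunits P4ha1, P4ha2 and P4hb did not pass at either stage.

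Among proteases and inhibitors that act on basement membranes, 9 of 20 tested were higher, 4 lower and 7 did not pass at E19. At P2, 8 were higher, 4 lower and 8 did not pass. The medians were 0.33 at E19 and 0.19 at P2. Over all tested genes 31.4% were higher and 25.2% lower at E19, and 28.8% and 21.8% at P2. The genes higher at P2 include Mmp16, which was under 100 units on every P2 and adult array. Adamts9, a protease of matrix proteoglycans, gave 1455 and 1481 units in the E19 pools, 1215 and 1191 in the P2 pools, and 110 and 69.9 in the adult pools, at least 14.0-fold higher in E19 plexus (adjusted p = 0.000223) and at least 11.5-fold in P2 plexus (adjusted p = 0.000343). Timp1, an inhibitor of metalloproteinases, was higher by 8.30-fold and 6.56-fold (adjusted p = 8.56e-05 and 0.000136). Hpse, the heparanase gene, was at least 2.30-fold higher in E19 plexus (adjusted p = 0.0366) and did not pass at P2 (adjusted p = 0.102). The 4 genes lower at E19, named after their values were seen, were the inhibitors Timp2 (1.82-fold, adjusted p = 0.000889) and Timp3 (1.23-fold, adjusted p = 0.0434), the cathepsin gene Ctsb (1.36-fold, adjusted p = 0.00769) and the protease gene Htra1 (at least 1.92-fold, adjusted p = 0.0107).

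Collagen IV and gelatin are cleaved by the product of Mmp2, which Mmp14 activates. Mmp2 gave 4503 and 4639 units in the E19 pools, 5426 and 4905 in the P2 pools, and 5168 and 4858 in the adult pools (adjusted p = 0.285 and 0.734), and Mmp14 did not pass either (adjusted p = 0.488 and 0.167). Without E19 pool 1 the number of genes in this list called at E19 fell from 13 to 8, and without P2 pool 1 that at P2 fell from 12 to 7.

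**Figure D4:**
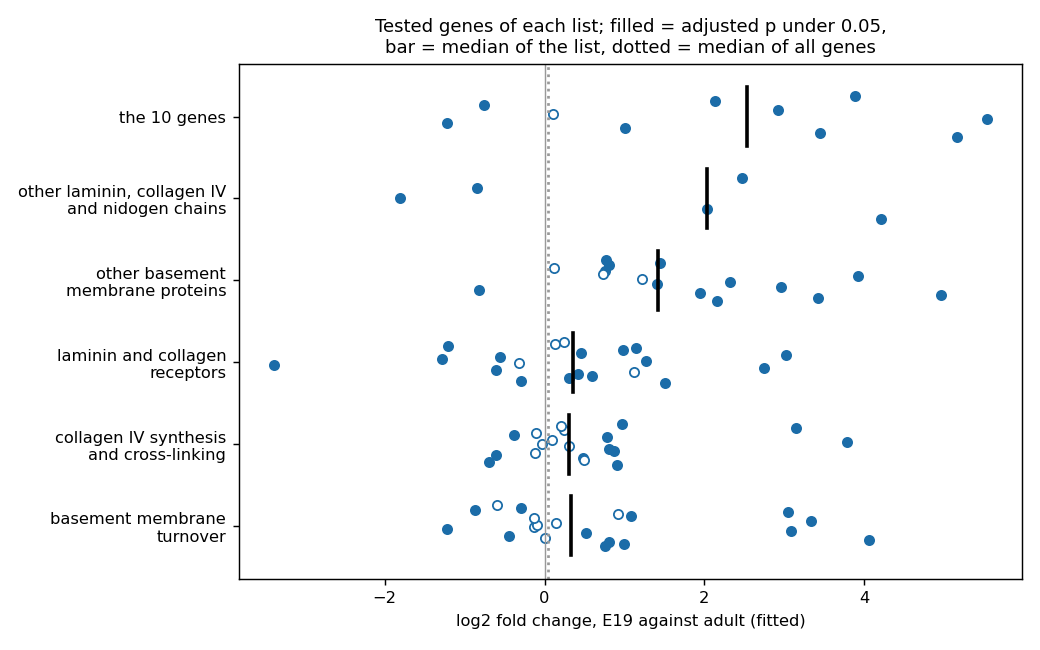
Each point is the log2 fold change (E19 against adult, fitted by limma) of 1 tested gene, by list, filled where the adjusted p was under 0.05, with a bar at the median of the list and a dotted line at the median of all genes (0.04). The medians run from 2.53 for the 10 genes to 0.31 for collagen IV synthesis, and the receptors spread to both sides.

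Endothelial, mural and fibroblast markers were mostly higher at the younger stages, the direction of 7 of the 10 genes. Of 14 endothelial markers tested, 13 were higher at E19 and at P2 than in the adult and 1, Vwf, did not pass. The medians, 2.39 and 2.53, rest partly on fitted values of Pecam1 at E19 and Flt1 at P2. Both genes were under 100 units on both adult arrays, and Flt1 was named after its values were seen. The summed intensity of the 14 markers was 13376 and 12630 units in the E19 pools, 13185 and 12489 in the P2 pools, and 2414 and 2404 in the adult pools. That sum was 5.40-fold higher at E19 than in the adult. Those with the largest log2 change at either stage were, at E19, Ramp2, at least 9.21-fold higher, Emcn, 12.0-fold, Plvap, the protein of fenestral diaphragms, 8.16-fold, Esam, at least 6.53-fold, Eng, at least 4.81-fold, and Egfl7, 3.48-fold (adjusted p from 5.23e-05 to 0.00109). Pecam1, a defining marker, was under 100 units on both adult arrays, with 80.5 and 54.0 units, and 350.0 and 344 at E19.

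Mural cell markers summed to 4432 and 4049 units in the E19 pools, 4583 and 4409 in the P2 pools, and 1167 and 1145 in the adult pools. Of 10 tested, 7 were higher and 1, Myh11, was lower at E19, and 8 were higher at P2, among them Rgs5, 14.1-fold higher in E19 plexus (adjusted p = 8.13e-05), and Pdgfrb, 3.18-fold (adjusted p = 0.00138). The called number at E19 fell from 8 to 5 without E19 pool 2. Fibroblast and fibrillar matrix genes summed to 29475 and 29594 units in the E19 pools, 35146 and 29991 in the P2 pools, and 9705 and 10553 in the adult pools. Of 13 tested, 10 were higher and 1 lower at E19, and 11 higher and 1 lower at P2. Col3a1 was 14.8-fold higher in E19 plexus (adjusted p = 8.51e-05), Col6a3 at least 16.7-fold (adjusted p = 0.000933), Lum 13.1-fold (adjusted p = 0.000288) and Col1a1 8.11-fold (adjusted p = 0.000808), while Pdgfra, the gene lower at both stages, was 1.77-fold lower in E19 plexus (adjusted p = 0.00461).

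The choroid plexus epithelium was present at all stages by its own markers. The summed intensity of 16 of them was 106002 and 106690 units in the E19 pools, 115101 and 109494 in the P2 pools, and 141839 and 135064 in the adult pools. Of 14 tested, 5 were higher, 5 lower and 4 did not pass at E19, with a median of -0.08. Prlr, the prolactin receptor gene, gave 635 and 816 units in the E19 pools, 940 and 1091 in the P2 pools, and 15269 and 16148 in the adult pools, 21.8-fold lower in E19 plexus (adjusted p = 8.81e-05). Without Prlr the sum was 105367 and 105874 units at E19 and 126570 and 118916 in the adult. Kl, the klotho gene, was 3.38-fold lower at E19, the homeobox gene Msx1 2.13-fold and Enpp2, of lysophosphatidic acid synthesis, 1.70-fold, while the keratin gene Krt8 was 1.75-fold higher and the E-cadherin gene Cdh1 at least 2.70-fold (adjusted p from 0.00033 to 0.00355). Ttr, the defining product of this epithelium, gave 12750 and 13345 units at E19 and 14847 and 11640 in the adult (adjusted p = 0.955), and Aqp1, Folr1 and Htr2c did not pass at either stage. Kcnj13 and Car12 were under 100 units throughout. Summed intensities of the 10 genes were 29889 and 29915 units in the E19 pools, 32761 and 26639 in the P2 pools, and 16430 and 15854 in the adult pools, 1.85-fold higher at E19 than in the adult. In an extract of whole plexus, fewer cells of a type and less RNA per cell cannot be told apart, and the part of vessel or stromal cell numbers in the differences of the 10 genes was not tested.

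**Figure D5:**
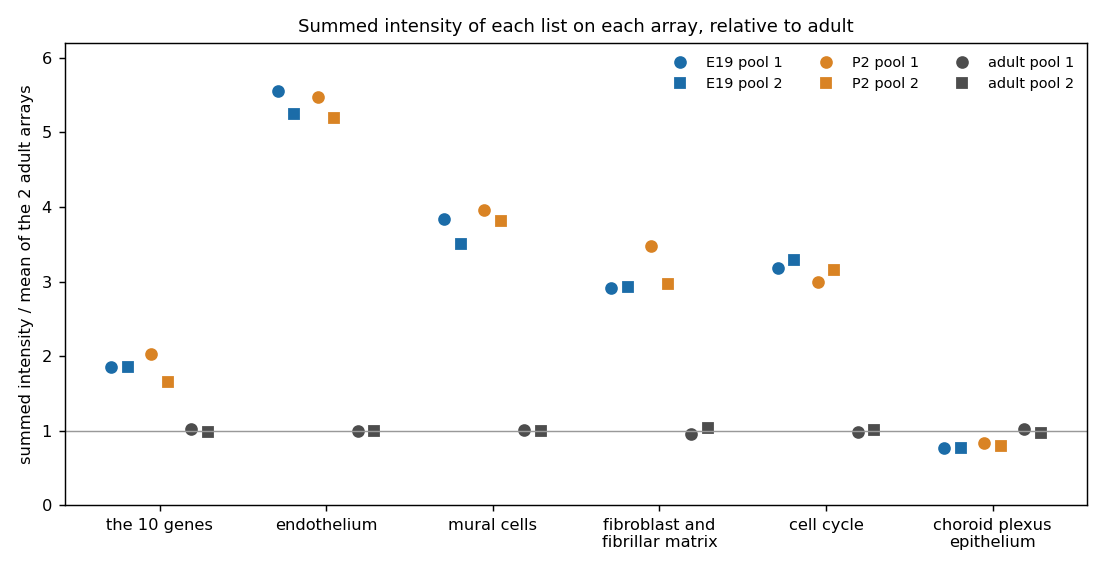
Summed intensity of each gene list on each array, divided by the mean of the 2 adult arrays (y axis, linear from 0), circles for pool 1 and squares for pool 2. The endothelial sum was 5.40 times its adult mean at E19, mural cells 3.67, cell cycle 3.23, fibroblast and fibrillar matrix 2.92 and the 10 genes 1.85, while the epithelial sum was 0.768. A sum follows its brightest probe sets, so the order of the lists is not read.

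Genes most like Lamb2 and Lama5 were found by the distance between pairs of log2 fold changes (E19 and P2 against adult) over 10333 other tested genes. None is given for Col4a1, whose change is a bound. Nearest to Lamb2 were Nab1, Flywch1 and Rnf103, within 0.011, and nearest to Lama5 were Mycbpap, Pacc1 and Arhgap5, within 0.03. The standard errors of the changes were 0.16 for Lamb2 and 0.29 for Lama5, well above these distances. Which genes rank nearest is therefore uncertain, and Lama5 itself did not pass at either stage.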

How the data were processed

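The deposited values are signal intensities that the authors computed with the MAS5 algorithm in Affymetrix Expression Console (its version is not given in the sources used here), linear and scaled to a 2% trimmed mean of 500.2 on every array. The table held 31099 probe sets, 57 of them controls. Medians were 100.4 to 126 units, and 50.1 to 53.6% of probe sets reached 100 units. The number of arrays limits precision. The 17808 probe sets whose mean reached 100 units at some stage were fitted on log2 intensity with limma 3.58.1 in R 4.3.3, 1 mean per stage, 3 residual degrees of freedom, and p was adjusted by Benjamini-Hochberg over all of them. A fold against a stage with both arrays under 100 units is a bound set by 100 units (also, for 6 named genes with 1 such array, with that array set to 100), and no fold is given between 2 such stages. Genes came from 20826 single-gene probe sets. A probe set with a stage mean under 100 units entered only through a stage where it was higher. This favours calls in that direction, in every list and in the background shares. Medians of lists use fitted values, also for genes whose fold is a bound. The p-values measure the spread between pools. Where 1 array of a stage is left out, that stage has no spread of its own. The p-value then rests on the other stages and on the spread shared over probe sets. The 10 genes, the lists and the tests were chosen with earlier results of these data known. Named were the 10 genes, the other chains and up to 6 genes of each other list with the largest called change against the adult. Genes described as not passing were also named, as were 3 nearest genes each for Lamb2 and Lama5 (the rule also asked for Col4a1). Further names are marked, except Pecam1, Myh11, Pdgfra, Kcnj13 and Car12, which lie outside this rule. Alternatives varied filter, scaling, low values, arrays, spread, pairing, probe sets and threshold.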

Additional observations from a re-analysis of the deposited data

How the results depend on the processing

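Over 17 alternatives, 8 to 9 of the 10 genes stayed called at E19 and 8 to 10 at P2 against the adult, and none of the 10 reversed a called direction. Of 519 comparisons of single genes and settings, 496 kept their side of the threshold, 22 lost it and 1 gained it. These are not all distinct. Leaving out an array of the stage not compared gives the same fit as using only the 4 arrays compared. The 1 gained was Lama5 at P2 with a single P2 array left, a fit with no spread within P2. The 1 gene called between E19 and P2 became 0 with no filter, median centring, quantile normalization, only the 4 arrays compared, the pool number as a replicate block and an adjusted p under 0.01, and 0 to 0 when each array was left out (limma, with 1 of the 10 at an unadjusted p under 0.05 in the reported fit). The pool numbers do not pair samples (correlations of pool differences -0.06, -0.04 and 0.01 between stages). With the pool number as a block, 8991, 7959 and 121 probe sets were called at E19 against adult, P2 against adult and E19 against P2, beside 9732, 8765 and 1269. E19 against P2 gave 2287 with values under 100 units set to 100, 2168 with 50 units added, 2752 with trended and robust variance, 0 with no filter or a threshold of 0.01, and 0 to 1094 without 1 array. A threshold of 0.01 left 6057 and 4926 against the adult, no filter left 5626 at P2, and leaving out E19 pool 2 left 6465 at E19. Centring each array on the median of all its probe sets moved the median of all genes by -0.28 at E19 and -0.26 at P2, and the share of called probe sets that were higher from 55.7 to 33.8% and from 55.6 to 33.3%, with 49.2 and 48.7% after quantile normalization. The E19 minus adult log2 ratio of Lama4 to Lama5, 5.43, was 3.78 with the floor and 4.09 with the offset, and that of Col4a1 to Col4a5, 4.16, was 3.56 to 4.01 under the settings that moved it. The cause of these shifts was not tested.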

Other observations

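Dividing and blood cell genes, and those of other cells of the plexus, differed between the stages as well. All 16 tested cell cycle genes were higher at E19 and 15 at P2, with medians of 2.69 and 2.66, and Cdk1 gave 1707 and 1836 units at E19 and 57.8 and 59.5 in the adult. All 5 tested erythroid genes were higher at E19 and 4 at P2. Hbe1, an embryonic globin gene, gave 3170 and 2468 units in the E19 pools, 176 and 184 in the P2 pools, and 28.0 and 7.46 in the adult pools, at least 28.0-fold higher in E19 plexus (limma, adjusted p = 0.000613).

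Macrophage and myeloid markers did not share 1 direction, with 3 of 13 higher and 4 lower at E19, and 8 higher and 2 lower at P2. Mrc1, the mannose receptor of tissue macrophages, was at least 7.44-fold higher in E19 plexus (adjusted p = 0.000357), while Cd74, of antigen presentation, was 12.2-fold lower (adjusted p = 0.000438) and Lyz2, lysozyme, 6.32-fold lower (adjusted p = 0.000334). Of 9 neuron, glia and myelin genes tested, 2 were higher and 5 lower at E19. Mbp, a myelin gene, was under 100 units in every younger pool and gave 1989 and 656 units in the adult pools.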
